A study of Homo sapiens with 12 samples.

Results

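Cells repair alkylated DNA by several routes, and 8 genes of these routes are described here out of the 58174 genes in the deposited tables: MGMT, ALKBH2 and ALKBH3, which reverse the damage directly, MSH3, MSH6 and PMS2 of mismatch repair, and MPG and APEX1 of base excision repair. They were chosen by name, as genes known to bear on the response of glioblastoma to the alkylating drug temozolomide, and matched by gene symbol; all 8 were found. The cells were LN229 and U251, 2 established human glioblastoma lines, and no drug was given. Each line was reverse transfected with an siRNA against XRN2, with a non-targeting control siRNA (siNT_OTP) or without siRNA (mock), and total RNA was taken after 72 hours. Each of the 6 groups has 2 libraries, 12 in all. The lines were grown in different media with different shares of serum, so line and medium cannot be told apart. XRN2 encodes a nuclear exoribonuclease known to degrade the RNA left on the polymerase after cleavage at the poly(A) site.

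Temozolomide methylates guanine at the O6 position and, more often, guanine at N7 and adenine at N3. MGMT takes the O6-methyl group onto itself and is used up in the reaction; where it is lacking, O6-methylguanine pairs with thymine at replication and the mismatch repair factors, which recognise that pair, turn it into strand breaks. MPG cuts out the N-methylated bases, APEX1 then cuts the abasic site, and ALKBH2 and ALKBH3 remove methyl groups by oxidation. MGMT is known for loss of its transcript in glioblastomas with a methylated promoter; DNA methylation was not measured in these samples.

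Libraries held 4846768 to 7469052 exon reads. A count of 0 allows up to 3 reads, or 0.402 to 0.619 counts-per-million (CPM) in 1 library; such limits, and the intervals on read sums, take in the error of counting and nothing else. Whether the replicates were separate cultures is not in the labels, so every p here is against a spread that may be technical. XRN2 was lower in every XRN2 siRNA library: 33.5 and 25.6 CPM in LN229 against 201 to 242 in the 4 other libraries of that line, and 31.0 and 26.1 CPM in U251 against 134 to 144. The log2 change against control siRNA was −2.90 in LN229 and −2.28 in U251. LN229 control siRNA replicate 1 stood apart, with introns taking 5.58% of its gene reads and 7.60% to 9.55% of those of the other libraries. U251 mock replicate 2 stood apart in stress-response transcripts. Several results are also given without the first of these libraries. Omission of the second is mostly given within ranges over the 12 fits that left out 1 library. Glial and neural stem markers summed to 3318 to 6435 CPM in LN229 and 9899 to 18118 CPM in U251, where ALDH1L1 was at 0. GFAP, the astrocyte filament, was at 1.05 to 4.31 CPM in LN229 and 2348 to 6893 in U251. VIM, SOX2, SOX9, SLC1A3 and CD44 were likewise higher in every U251 library than in any of LN229. Other markers of that list went the other way. S100B was at 294 to 568 CPM in LN229 against 14.8 to 21.9 in U251. OLIG2 was at 6.73 to 9.67 against 0 to 0.161, and FABP7 at 89.1 to 172 against 65.0 to 88.2. NES overlapped between the lines. Blood markers summed to at most 1.01 CPM, with HBB at 0 in both lines and CD3E at 0 in U251. Fibroblast and pericyte markers summed to 392 to 528 CPM in LN229 against 9.79 to 16.7 in U251, where DCN was at 0, and their part in the differences between the lines was not tested. In bulk RNA, fewer cells with a transcript and less of it per cell cannot be told apart.

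MGMT was the 1 member without a single read in LN229. None of the 35735128 exon reads of the 6 LN229 libraries fell on it, which allows up to 0.0840 CPM over the line, and it had no intron read in either line. U251 held it at a low level in every library: 0.954 and 0.967 CPM in mock, 0.636 and 0.879 with control siRNA, and 1.19 and 1.18 with XRN2 siRNA, which are 4 to 8 reads per library. In sum, 35 of 38509877 exon reads were from MGMT, and 28 of the 35 crossed an exon-exon junction. As a plain share of exon reads, without the scaling of the values per library, this is 0.909 CPM (95% exact Poisson interval 0.633 to 1.26). The lines did not overlap. The U251 level of 0.909 CPM was at least 10.8-fold higher than LN229 at its 3-count limit over the line. Both are plain shares, and the ratio leaves out the counting error of the U251 reads. An exact two-sided permutation test of the 6 against 6 libraries, which takes libraries of different treatments as exchangeable, gave p = 0.00216. That is the lowest p this test can give with these numbers of libraries, so it adds nothing to the lack of overlap. MGMT (ENSG00000170430; chromosome 10, 129467184 to 129768007, plus strand, GRCh38) was below the filter on low counts and so is not among the 7 members tested. With no such filter, edgeR called it between the lines (adjusted p = 2.16e-07), and its log2 change with XRN2 siRNA in U251 was 0.63 (SE 0.89, adjusted p = 1.00). Within U251, 11 reads in mock, 9 with control siRNA and 15 with XRN2 siRNA have overlapping exact 95% Poisson intervals (5.49 to 19.7, 4.12 to 17.1 and 8.40 to 24.7 reads), so a change with XRN2 siRNA was not detectable at this depth.

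**Figure D1:**
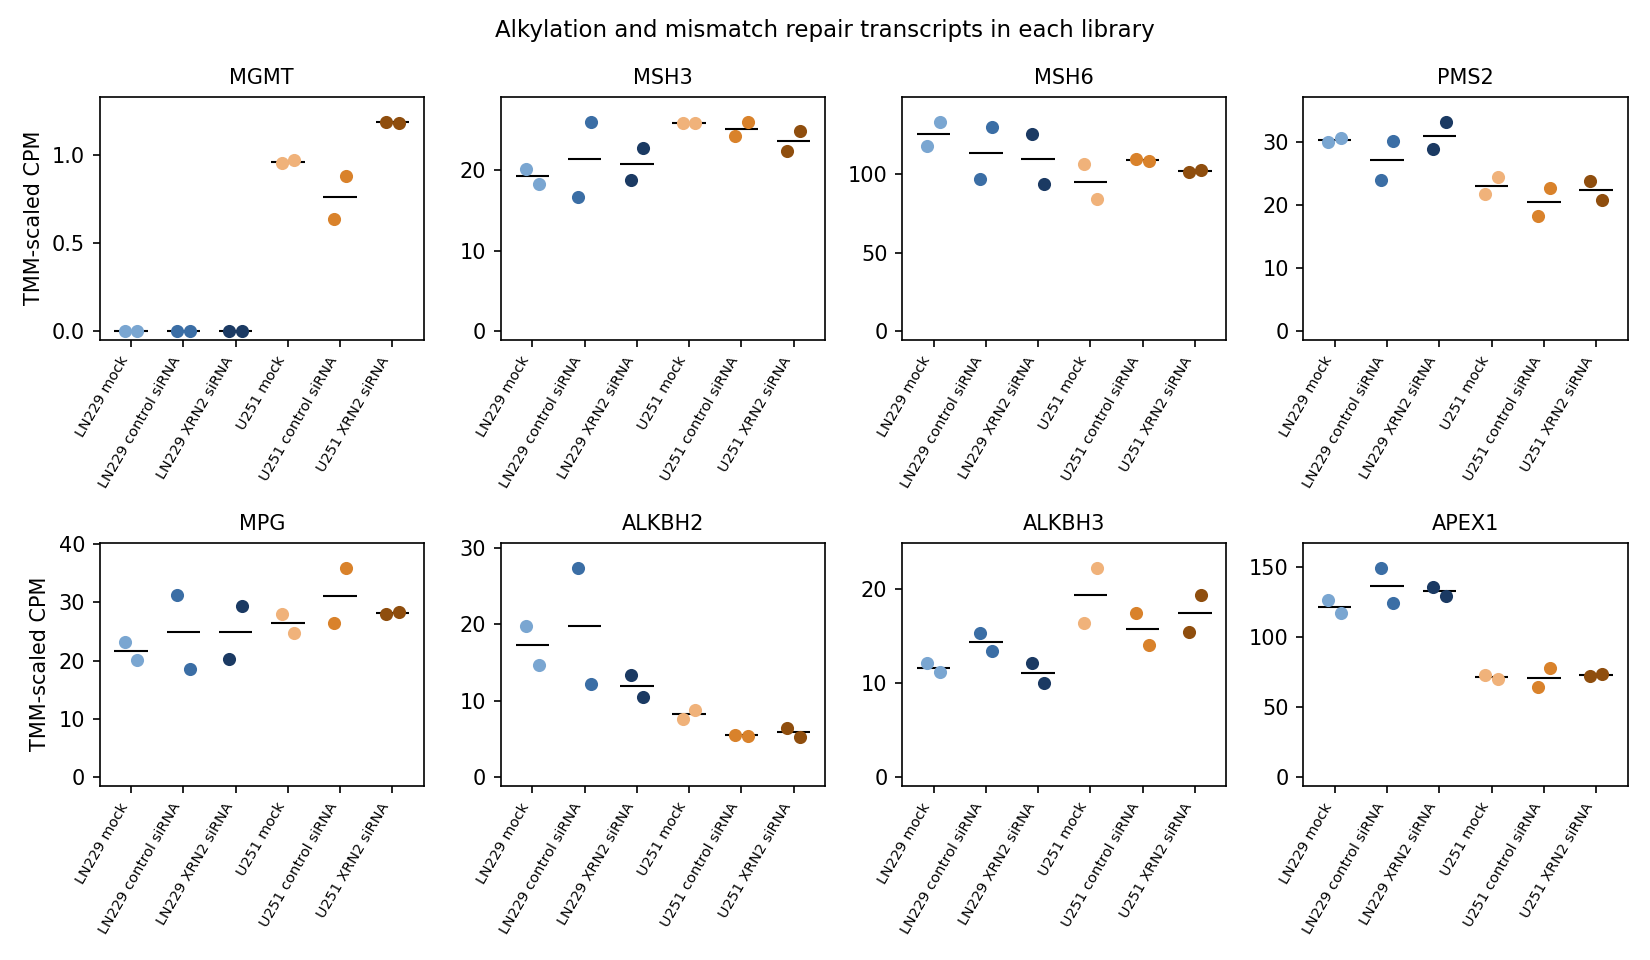
TMM-scaled CPM of the 8 genes in each library, 1 panel per gene with its own axis from 0; points are the 2 libraries of a group and the line is their mean. MGMT was at 0 in all 6 LN229 libraries; APEX1 and ALKBH2 were higher in all 6 LN229 libraries than in any of U251, and the replicates of LN229 control siRNA lay far apart for ALKBH2, at 27.4 and 12.3 CPM.

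The promoters of the 3 genes whose levels did not overlap between the lines, MGMT, ALKBH2 and APEX1, are shown because they differ in CpG content, the dinucleotide at which DNA is methylated. Each is the RefSeq window from 250 bases before to 50 bases after the gene's start on its own strand, written 5′ to 3′ with every CpG in capitals (GRCh38.p14).
MGMT, chr10:129466991-129467290, plus strand: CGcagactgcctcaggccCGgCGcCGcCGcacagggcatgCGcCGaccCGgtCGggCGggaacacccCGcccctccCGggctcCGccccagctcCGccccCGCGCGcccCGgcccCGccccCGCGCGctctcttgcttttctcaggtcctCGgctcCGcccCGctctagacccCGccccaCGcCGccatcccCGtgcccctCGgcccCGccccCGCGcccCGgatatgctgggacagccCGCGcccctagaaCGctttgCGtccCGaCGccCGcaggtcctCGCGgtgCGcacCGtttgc
ALKBH2, chr12:109093423-109093722, minus strand: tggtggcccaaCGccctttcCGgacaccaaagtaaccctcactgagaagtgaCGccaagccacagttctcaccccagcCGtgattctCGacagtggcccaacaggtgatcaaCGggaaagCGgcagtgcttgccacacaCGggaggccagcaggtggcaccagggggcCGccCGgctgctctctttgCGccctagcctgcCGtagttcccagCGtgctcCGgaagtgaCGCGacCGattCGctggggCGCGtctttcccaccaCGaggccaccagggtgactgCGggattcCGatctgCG
APEX1, chr14:20454976-20455275, plus strand: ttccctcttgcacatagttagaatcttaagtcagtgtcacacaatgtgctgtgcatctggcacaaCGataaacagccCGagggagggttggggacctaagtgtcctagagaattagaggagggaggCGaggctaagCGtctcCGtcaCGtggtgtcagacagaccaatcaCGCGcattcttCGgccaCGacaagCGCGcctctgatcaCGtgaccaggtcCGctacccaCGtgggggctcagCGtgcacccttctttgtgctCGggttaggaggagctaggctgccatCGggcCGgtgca
MGMT has 45 CpG in its 300 bases, the most of the 8, and 3.48% of 35116 RefSeq promoters of that length have as many or more. ALKBH2 has 24 and APEX1 19, against a median of 14 over all promoters. The other 5 members have 39 (MSH6), 37 (MSH3), 34 (MPG), 24 (PMS2) and 21 (ALKBH3). Searched on both strands, the Sp1 GC box GGGCGG stands 8 times in the MGMT window, 1 time in that of ALKBH2 and not in that of APEX1, and 45.0% of all promoters hold it. The E box CACGTG stands 3 times in the APEX1 window and is held by 7.26% of promoters. The ETS site CCGGAAGT stands 1 time each in ALKBH2 and ALKBH3 and is held by 4.14%. TATAAA is in none of the 8 windows. These matches describe the letters only.

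LN229 and U251 also differed in 5 of the 7 members that could be tested over all treatments: APEX1, ALKBH2 and PMS2 were higher in LN229, and ALKBH3 and MSH3 were lower. Differences of this kind were common, since 73.0% of the 14232 genes tested passed the same threshold (37.7% higher and 35.3% lower in LN229), so the members' count is near that background. The threshold was an adjusted p under 0.05 by edgeR's quasi-likelihood test with Benjamini-Hochberg adjustment over all genes tested. The members' median log2 difference was 0.19, against 0.03 over all genes. In 2 of the 7, APEX1 and ALKBH2, all libraries of one line lay above all of the other, as did 49.5% of genes tested.

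Of the direct reversal enzymes, ALKBH2, a dioxygenase that acts mainly on double-stranded DNA, had the largest difference between the lines among the 7 tested members. Its level in LN229 was 19.8 and 14.7 CPM in mock, 27.4 and 12.3 with control siRNA and 13.4 and 10.5 with XRN2 siRNA. In U251 the values were 7.63 and 8.87 in mock, 5.56 and 5.45 with control siRNA and 6.53 and 5.23 with XRN2 siRNA. The lowest LN229 library thus lay above the highest of U251. ALKBH2 (ENSG00000189046; chromosome 12, 109088188 to 109093631, minus strand) was 2.47-fold higher in LN229, a log2 difference of 1.30 (SE 0.20, 95% interval 0.88 to 1.73, adjusted p = 4.64e-05 by edgeR). The call held in all 23 alternatives, with log2 differences of 1.03 to 1.83. All of its 844 exon reads were counted as unique.

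ALKBH3, which prefers single-stranded DNA and also acts on RNA, went the other way. In LN229 it was at 12.1 and 11.1 CPM in mock, 15.3 and 13.5 with control siRNA and 12.2 and 9.98 with XRN2 siRNA, and in U251 at 16.4 and 22.2, 17.5 and 14.1, and 15.4 and 19.4 CPM. Only LN229 control siRNA replicate 1 (15.3 CPM) lay above any U251 library. ALKBH3 (ENSG00000166199; chromosome 11, 43880811 to 43920266, plus strand) differed by −0.51 on the log2 scale (SE 0.13, 95% interval −0.78 to −0.23, adjusted p = 0.00268 by edgeR) and was lower in LN229. The call held in 21 of 23 alternatives; with the control siRNA groups alone the difference was −0.14 (adjusted p = 0.616). Over the 12 fits that left out 1 library, the ALKBH3 difference over all treatments ran from −0.57 to −0.43. Introns took 17.4% to 38.9% of its gene reads, and an annotated antisense gene, ALKBH3-AS1, covers 28.8% of its exon bases with at most 4 reads per library.

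Among the mismatch repair members, PMS2 was higher in LN229. PMS2 encodes the endonuclease subunit of the MutL-alpha complex. It was at 30.0 and 30.7 CPM in LN229 mock, 23.97 and 30.3 with control siRNA and 28.9 and 33.3 with XRN2 siRNA. In U251 it was at 21.8 and 24.5, 18.3 and 22.7, and 23.9 and 20.9 CPM. A single pair of libraries kept the lines from separating, 23.97 CPM in LN229 control siRNA replicate 1 and 24.5 in U251 mock replicate 2. PMS2 (ENSG00000122512; chromosome 7, 5973239 to 6009125, minus strand) differed by 0.42 on the log2 scale (SE 0.10, 95% interval 0.20 to 0.64, adjusted p = 0.00219 by edgeR) and was called in 21 of 23 alternatives. It has near-identical copies: 23.0% of its 50-base words also occur in other genes, most of them in PMS2CL, so its level is uncertain. Of its exon reads 86.5% were counted as unique, and these alone gave 0.43 (SE 0.11, adjusted p = 0.00311). Over the 12 fits that left out 1 library, the difference on all exon reads ran from 0.36 to 0.47.

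MSH3, the partner that makes the mismatch sensor act on longer loops, was lower in LN229, at 16.7 to 26.1 CPM (median 19.5) against 22.4 to 26.0 (median 25.5) in U251. The lines overlapped, and the highest library of all was LN229 control siRNA replicate 2 at 26.1 CPM, beside 16.7 in replicate 1, the lowest. MSH3 (ENSG00000113318; chromosome 5, 80654648 to 80876460, plus strand) differed by −0.28 on the log2 scale (SE 0.12, 95% interval −0.53 to −0.03, adjusted p = 0.0416 by edgeR). That call did not last: it held in 5 of 23 alternatives, and leaving out any 1 of 10 of the 12 libraries ended it, with adjusted p over all 12 omissions between 0.00219 and 0.105. Without LN229 control siRNA replicate 1 the MSH3 difference was −0.20, and without U251 mock replicate 2 it was −0.29. Of the exon reads of MSH3, 98.4% were counted as unique.

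MSH6, the partner for single mismatches such as the pair with O6-methylguanine, did not pass the test on all exon reads. Its levels were 117.9 and 133.7 CPM in LN229 mock, 96.9 and 130.3 with control siRNA and 125.6 and 94.0 with XRN2 siRNA, and in U251 106.7 and 84.1, 109.7 and 108.5, and 101.5 and 102.5 CPM. MSH6 (ENSG00000116062; chromosome 2, 47695530 to 47810101, plus strand) differed by 0.19 on the log2 scale (SE 0.11, 95% interval −0.04 to 0.42, adjusted p = 0.121 by edgeR). Most of these reads, 5418 of 8193, were not counted as unique. Of the 50-base words of MSH6, 14.2% also occur in other genes, most of them in FBXO11. MSH6 overlaps the whole span of FBXO11, introns included, on the opposite strand by 20786 bases. That stretch holds 65.9% of the annotated exon bases of MSH6. Of its 2679 reads across exon-exon junctions, 2633 were unique. With unique exon reads the difference was 0.27 (SE 0.10, adjusted p = 0.0293), and with exon-exon reads it was 0.31 (SE 0.11, adjusted p = 0.0220), so both put MSH6 above the threshold. FBXO11 itself differed by −0.03 (SE 0.08, adjusted p = 0.768); its part in the MSH6 value was not tested. Without LN229 control siRNA replicate 1 the difference on all exon reads was 0.25 (adjusted p = 0.0224), and without LN229 XRN2 siRNA replicate 2 it was 0.25 (adjusted p = 0.0473).

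MSH6 and MSH3 compete for the same partner, and their exon-exon reads stood in a ratio of 1.63 to 3.0 in the LN229 libraries (median 2.32) and of 1.22 to 1.88 in U251 (median 1.67). These are ratios of read counts, not of molecules, because the transcripts differ in length and in number of junctions.

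**Figure D2:**
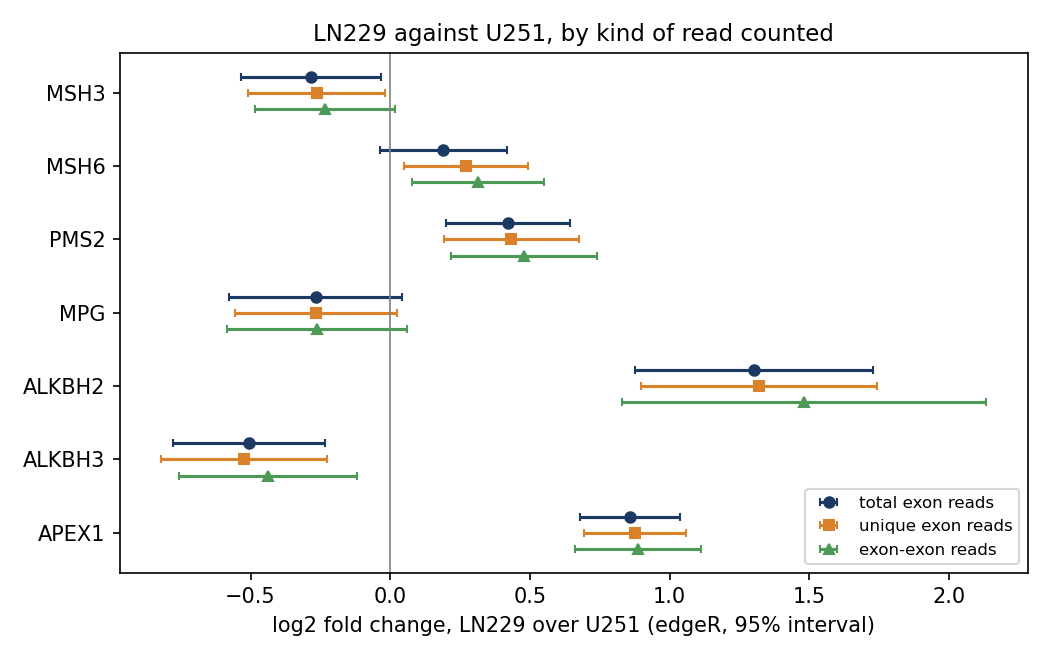
Log2 fold change of LN229 over U251 for the 7 tested members, from the fit over all 12 libraries; symbols give the 3 kinds of reads counted and bars the 95% interval. APEX1 and ALKBH2 lie to the right of 0 with every kind of read, and MSH6 moves from 0.19 with all exon reads to 0.31 with exon-exon reads.

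APEX1, the main abasic-site endonuclease of base excision repair, had the smallest adjusted p of the 7 between the lines. In LN229 it was at 126 and 117 CPM in mock, 149.7 and 124 with control siRNA and 136 and 129 with XRN2 siRNA. In U251 it was at 73.3 and 70.1, 64.5 and 77.9, and 72.1 and 73.7 CPM. No U251 library came near the lowest of LN229. APEX1 (ENSG00000100823; chromosome 14, 20455191 to 20457772, plus strand) was 1.81-fold higher in LN229, a log2 difference of 0.86 (SE 0.08, 95% interval 0.68 to 1.04, adjusted p = 6.94e-07 by edgeR), and was called in all 23 alternatives. All 7535 of its exon reads were counted as unique. OSGEP, which starts head to head with it at a distance of 86 bases, differed by 0.26 (adjusted p = 0.0347).

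MPG, the glycosylase that starts the repair of N-methylated bases, did not pass. Its levels were 18.5 to 31.2 CPM in LN229 (median 21.7) and 24.7 to 35.9 in U251 (median 27.97), with overlap. MPG (ENSG00000103152; chromosome 16, 77007 to 85853, plus strand) differed by −0.27 on the log2 scale (SE 0.14, 95% interval −0.58 to 0.04, adjusted p = 0.109 by edgeR). Without LN229 control siRNA replicate 1 the value was −0.41 (adjusted p = 0.0110), and without LN229 XRN2 siRNA replicate 2 it was −0.36 (adjusted p = 0.0464). MPG overlaps NPRL3, on the opposite strand, by 1583 bases that hold 27.3% of its exon bases, and 67.0% of its exon reads were counted as unique. NPRL3 was at 10.7 to 15.3 CPM in LN229 and 17.0 to 25.8 in U251, the same direction as MPG. Its part in the MPG value was not tested.

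Per kilobase of annotated exon, APEX1 had the highest level of the 8 in both lines, at a median of 67.8 CPM per kilobase in LN229 and 38.5 in U251. MPG followed at 13.1 and 16.8, then MSH6 at 11.1 and 9.51. In LN229 the order went on with PMS2 at 7.66, ALKBH2 at 6.14, ALKBH3 at 5.13 and MSH3 at 4.14, and in U251 with ALKBH3 at 7.15, PMS2 at 5.64, MSH3 at 5.40, ALKBH2 at 2.64 and MGMT at 0.270. Neighbours overlapped across libraries except APEX1 and MPG in both lines, MSH6 and PMS2, and MSH3 and MGMT, in LN229, and MPG and MSH6, MSH3 and ALKBH2, and ALKBH2 and MGMT in U251. The place of MSH6 rests on an exon length of 10993 bases that includes the stretch inside the span of FBXO11.

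XRN2 siRNA left the members without a called change in either line. In LN229, 0 of 7 passed by edgeR and 0 by DESeq2, against 3.16% of all genes in edgeR, with 1 at an unadjusted p under 0.05. The members' median log2 change was −0.05, beside −0.00 over all genes. In U251, 0 of 7 passed by either tool, against 0.00703% of all genes, with 0 at an unadjusted p under 0.05. There all 7 changes were within 1 SE of 0, from −0.14 to 0.14. Over the mean of both lines 0 of 7 passed by edgeR (1.22% of all genes), and for the difference between the lines 0 of 7 passed (0.0% of all genes). No member had an unadjusted p under 0.05 by edgeR in either. By DESeq2 both counts were 0. For the difference, however, DESeq2 gave an adjusted p to 7610 genes only, and ALKBH2, ALKBH3 and MSH3 were not among them.

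The exception at an unadjusted p was ALKBH2 in LN229, and it turned on the control replicates. With XRN2 siRNA it was at 13.4 and 10.5 CPM, which overlaps the 27.4 and 12.3 CPM of control siRNA and lies below the 19.8 and 14.7 CPM of mock. The log2 change against control siRNA was −0.71 (SE 0.31, 95% interval −1.38 to −0.03, edgeR adjusted p = 0.207). Without control siRNA replicate 1 the change was 0.00 (adjusted p = 1.00), and without replicate 2 it was −1.19 (adjusted p = 0.00590). Against mock it was −0.51 (adjusted p = 0.456), and with exon-exon reads −1.13 (adjusted p = 0.226). With no filter on low counts it passed narrowly (−0.71, adjusted p = 0.0494). In U251 the change was 0.10 (SE 0.38), and the difference between the lines, −0.81 (SE 0.49), did not pass (edgeR adjusted p = 0.765).

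The intervals give the range of changes compatible with the fit. For APEX1 the 95% interval of the log2 change was −0.35 to 0.26 in LN229 and −0.28 to 0.35 in U251. For PMS2 it was −0.19 to 0.57 in LN229 and −0.26 to 0.53 in U251, for MSH3 −0.49 to 0.39 and −0.52 to 0.34, and for MSH6 −0.44 to 0.35 and −0.49 to 0.30. For MPG it was −0.54 to 0.54 in LN229 and −0.67 to 0.38 in U251, and for ALKBH3 −0.85 to 0.12 and −0.33 to 0.60. ALKBH2, whose interval in LN229 is given above, had −0.73 to 0.92 in U251. Changes within these intervals were not detectable at this depth and replication. ALKBH3 in LN229 was at 12.2 and 9.98 CPM with XRN2 siRNA against 15.3 and 13.5 with control siRNA. These libraries did not overlap, as in 46.9% of genes tested, and the log2 change was −0.36 (SE 0.23, edgeR adjusted p = 0.359). MSH6 in U251 likewise did not overlap, as in 45.4% of genes, with a log2 change of −0.10 (SE 0.18, edgeR adjusted p = 1.00). MSH6 exon-exon reads gave −0.34 (SE 0.19, edgeR adjusted p = 0.341) in LN229.

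**Figure D3:**
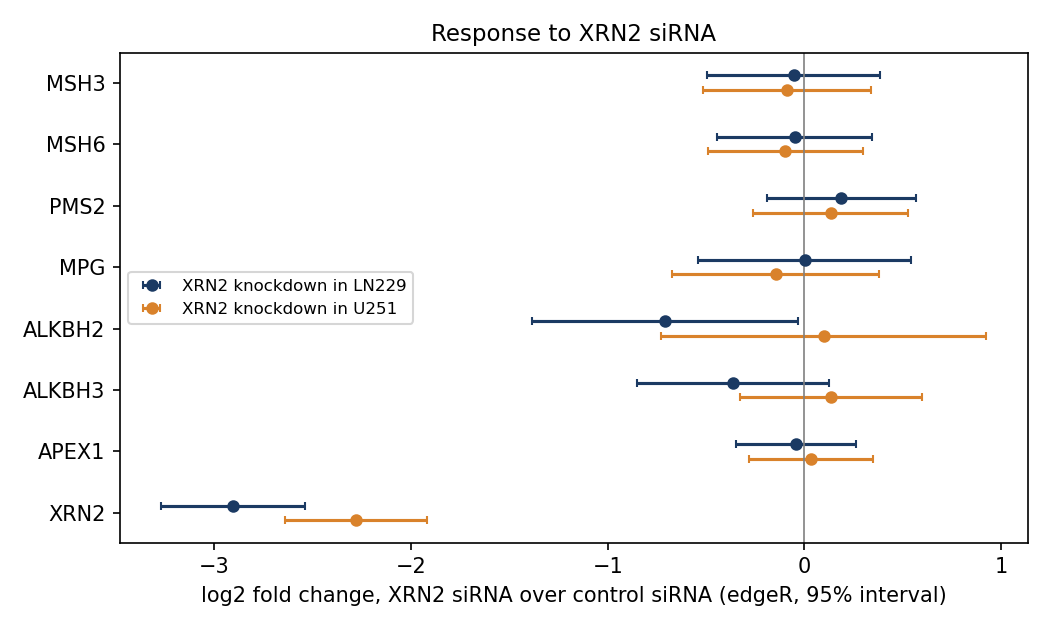
Log2 fold change of XRN2 siRNA over control siRNA in each line, with 95% intervals from the fit over all 12 libraries, for the 7 tested members and XRN2. XRN2 lies at −2.90 and −2.28; the members' intervals cross 0 in both lines except that of ALKBH2 in LN229, which did not pass after adjustment.

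The control siRNA was compared with mock as a measure of what transfection with an siRNA does to these genes. In LN229 and in U251, 0 of 7 members passed by edgeR and by DESeq2 (0.0% of all genes by edgeR in each), with 0 at an unadjusted p under 0.05 in each. The log2 changes ran from −0.16 to 0.30 in LN229. In U251 they ran from −0.58, for ALKBH2, to 0.24. The LN229 changes depended on single libraries. Over the 12 fits that left out 1 library, they ran from −0.49 to 0.67 for ALKBH2 and −0.23 to 0.53 for MPG. For MSH3 they ran from −0.20 to 0.44 and for MSH6 from −0.38 to 0.05. ALKBH3, APEX1 and PMS2 kept their sign.

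The replicates of LN229 control siRNA differed in a way that followed the annotated exon length of the gene, and the members show it. ALKBH2, MPG, APEX1 and ALKBH3, with 1661 to 2372 bases of exon, were higher in replicate 1 by 1.14, 0.74, 0.27 and 0.18 on the log2 scale. MSH3, MSH6 and PMS2, with 3936 to 10993 bases, were lower in it by 0.63, 0.43 and 0.33. Across all 14232 tested genes, which are not independent replicates, Spearman's rho of the replicate difference with exon length was −0.49 in this pair, and −0.03 to 0.10 in the other 5 pairs. Its part in the members' values was not tested beyond leaving each library out.

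**Figure D4:**
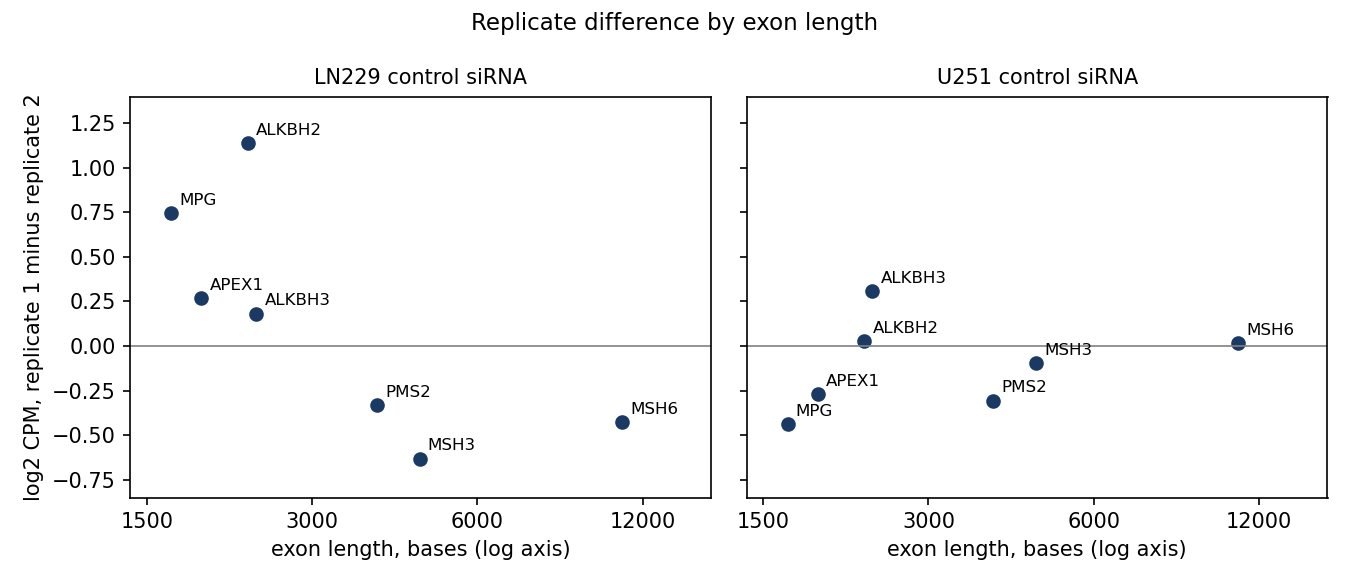
Log2 CPM of replicate 1 minus replicate 2 against exon length (log axis) for the 7 tested members, in LN229 control siRNA and in U251 control siRNA. In LN229 the 4 members with the shortest exons lie above 0 and the 3 longest below; in U251 the points show no such split, with MPG at −0.44 and MSH6 at 0.02.

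The other factors of mismatch repair did include transcripts that fell with XRN2 siRNA in LN229. Of 22 tested factors on that list, 2 were lower and 0 higher at the threshold, with 1.95% of all genes lower and 1.21% higher, and 17 had a change below 0; the list's median was −0.43 against −0.00 over all genes. HMGB1, a chromatin protein also known to act in mismatch and base excision repair, was at 468 and 320 CPM with XRN2 siRNA against 773 and 626 with control siRNA, a log2 change of −0.83 (SE 0.19, edgeR adjusted p = 0.0393). LIG1, the DNA ligase of replication that seals repaired strands, was at 34.8 and 23.6 CPM against 52.4 and 49.9 (−0.80, SE 0.20, edgeR adjusted p = 0.0488). Both calls held in 4 of the 12 fits that left out 1 library, those without LN229 control siRNA replicate 2, LN229 XRN2 siRNA replicate 1 or either U251 mock library. Without LN229 XRN2 siRNA replicate 2 the change was −0.58 for HMGB1 (edgeR adjusted p = 0.433) and −0.55 for LIG1 (adjusted p = 0.471). Without LN229 control siRNA replicate 1, the library that stood apart, it was −0.64 for HMGB1 (edgeR adjusted p = 0.166) and −0.73 for LIG1 (adjusted p = 0.150). RFC2, a subunit of the sliding-clamp loader, missed the threshold narrowly at −0.84 (SE 0.21, edgeR adjusted p = 0.0516). EXO1, the exonuclease that removes the mismatched strand, also missed it, at −0.83 (SE 0.24, edgeR adjusted p = 0.0742). Both depended on single libraries. Over the 12 fits that left out 1 library, the change ran from −1.29 to −0.51 for RFC2 and from −1.46 to −0.41 for EXO1.

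Of 22 base excision repair factors, HMGB1, which is on both lists, and NEIL3 were lower in LN229 and 0 were higher, with a list median of −0.09. Of all genes tested, 1.95% were lower and 1.21% higher. NEIL3, a glycosylase for oxidised bases and crosslinks, was at 16.7 and 11.03 CPM with XRN2 siRNA against 23.8 and 27.4 with control siRNA (−0.87, SE 0.21, edgeR adjusted p = 0.0439). Its call, like the others, held in 4 of the 12 fits that left out 1 library, and without LN229 XRN2 siRNA replicate 2 the change was −0.62 (edgeR adjusted p = 0.428). Without LN229 control siRNA replicate 1 it was −0.94 (edgeR adjusted p = 0.0964). Of 14 AlkB family genes and ALKBH3 partners, 0 passed in LN229, against 3.16% of all genes, and the list median was 0.02. Beside these lists, 6 of 21 genes of mitosis and S phase were lower in LN229, against 1.95% of all genes. All 21 had a change below 0, and their median was −0.67. Their part in the changes of HMGB1, LIG1 and NEIL3 was not tested. In U251, 0 genes of the 3 repair lists passed, against 0.00703% of all genes, and the medians were −0.07, −0.01 and 0.00. The 21 genes of mitosis and S phase all had a change below 0 in U251 too. Their median there was −0.31, against 0.00 over all genes, and 0 passed.

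Between the lines, 13 of the 22 other mismatch repair factors were higher in LN229 and 4 were lower. Of all genes tested, 73.0% were called in this comparison, 37.7% higher and 35.3% lower, and the counts of this list and of the next 2 lists are descriptions to be read beside those shares. MLH3, which pairs with the same core subunit as PMS2, was nearly absent from LN229, with 1 to 5 reads per library and 15 in all, against 63 to 91 reads per library and 442 in all in U251. Its level was 0.138 to 0.876 CPM in LN229 and 10.2 to 14.1 in U251, a log2 difference of −4.94 (SE 0.27, edgeR adjusted p = 2.43e-09) that was called in all 23 alternatives. EXO1 was higher in LN229 by 1.82 (SE 0.15) and the clamp-loader subunit RFC3 by 1.44 (SE 0.13), and RPA1, which coats single-stranded DNA, was lower by 1.00 on the log2 scale (SE 0.09), each called in all 23 alternatives.

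Of the 22 base excision repair factors, 13 were higher in LN229 and 5 lower (37.7% and 35.3% of all genes), with a list median of 0.34 beside 0.03 over all genes. SMUG1, a uracil glycosylase, was higher by 0.94 (SE 0.09) and APTX, which clears blocked ends at nicks, by 0.69 (SE 0.08), while MBD4, a glycosylase for mismatched thymine, was at −0.71 (SE 0.09). Of the 14 AlkB family genes and partners, 3 were higher and 8 lower in LN229 (37.7% and 35.3% of all genes), with a median of −0.41 beside 0.03 over all genes. The 3 higher, named after their values were seen, were ALKBH4 at 0.56 (SE 0.13), the ALKBH3 partner OTUD4 at 0.40 (SE 0.11) and USP7, another such partner, at 0.21 (SE 0.08). The RNA demethylases ALKBH5 and FTO were at −1.76 (SE 0.09) and −1.33 (SE 0.09), the tRNA modifier ALKBH8 at −1.74 (SE 0.11), and USP9X, a deubiquitinase reported to stabilise ALKBH3, at −1.39 (SE 0.11).

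By library, the genes most like each member were found among tested genes of at least 20 CPM, by Pearson's r of log2 CPM centred within each line over the 12 libraries. They are a description with no test, and all values share the same libraries and their depth. For MSH6 they were CLSPN (r = 0.96), NCAPD3 (0.96) and E2F3 (0.95). HAGH (0.94), RBM7 (0.93) and LINC01578 (0.92) came first for ALKBH2, and CNPPD1 (0.89), IDH2 (0.88) and LAMTOR2 (0.87) for APEX1. Nearest to MPG were TMEM115, ZDHHC24 and ACAA1 (0.94 each), and to ALKBH3 DDX19B (0.91), RAP1B (0.90) and KHDRBS3 (0.90). PMS2 was most like KDM7A (0.91) and NDST2 (0.89), and MSH3 most like C10orf76 (0.86), PTPRB (0.86) and SIN3B (0.83). Among the members themselves the highest values were 0.68 for MPG with APEX1 and 0.59 for ALKBH2 with ALKBH3, and the lowest was −0.55 for MSH6 with MPG; the length-related difference between the LN229 control siRNA replicates is part of these values.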

How the data were processed

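The authors deposited, for each of 12 libraries, a table with whole-number read counts per gene for exons, exon-exon junctions and introns, each as total and unique reads, per the file headers. Aligner and counting program: not given in the sources used here. Libraries were made with the TruSeq RNA v2 kit, which captures RNA by its poly(A) tail and does not mark strand, and read on a MiSeq, per the labels. GRCh37 and hg19 are the builds in the submitters' processing notes, but 96.8% of shared gene identifiers have the coordinates of GENCODE 29 (GRCh38), among them all 8 members. Total exon counts were fitted in edgeR 4.0.16 (R 4.3.3): filterByExpr (minimum count 10, total 15; 14232 genes), TMM scaling, 1 mean per group over all 12 libraries (6 residual degrees of freedom), robust quasi-likelihood tests, Benjamini-Hochberg at 0.05. CPM values are TMM-scaled, except the limits from a count of 0 and the MGMT values summed over a line. Those are plain shares of exon reads. Intervals use the fit's degrees of freedom, except the Poisson intervals on read sums. Contrasts set XRN2 siRNA against control siRNA within each line, with the mean and difference of both, control siRNA against mock, and LN229 against U251 as the mean over the 3 treatments. Alternatives were DESeq2 1.42.0 and its size factors, no TMM factors, other filters, other reads counted, fewer groups, other controls, a replicate block and each library left out. The fit was also run on simulated counts, whose outcome is not used here. Those were drawn from 1 mean per gene over all libraries with the fit's own spread. They lacked the differences between the lines and the length-related difference between replicates. Named genes are the members, their overlapping or head-to-head neighbours and close copies, and of each list the called genes and up to 4 with the smallest p in a contrast, and not all of them are described here. The members and lists were chosen with earlier results of these data known. Replicate pairs differed by more than sampling noise (chi-square per gene 1.73 to 27.2).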

Additional observations from a re-analysis of the deposited data

How the results depend on the processing

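With 2 libraries per group, calls depended on the spread shared over all groups. Of the 7 tested members, 5 were called between the lines; the count was 3 with the replicate block, 3 with the mock groups alone, 2 with the control siRNA groups alone, and 4 to 7 when 1 library was left out. The count for XRN2 siRNA in LN229 was 1 with no filter on low counts and 0 to 1 when 1 library was left out. In U251, for the mean, the difference and control siRNA against mock, it was 0 in all alternatives run. Of 1113 member values under alternatives, 99 had the other sign and 0 were called with it. Within each line, same-numbered replicates did not deviate together (correlations −0.04 to 0.07), so the numbers were not taken to pair libraries of a line; pairs across the lines were not checked. The replicate block ended the calls of MSH3 (−0.37, adjusted p = 0.0670) and ALKBH3 (−0.33, adjusted p = 0.134) between the lines and changed no other call of a member. Without TMM factors the median of all genes between the lines moved from 0.03 to 0.21, the split of calls from 5362 higher and 5027 lower to 6557 and 4004, and MSH6 to 0.38 (adjusted p = 0.00557), MSH3 to −0.09 (adjusted p = 0.492); no member changed direction. In LN229 with XRN2 siRNA that split moved from 172 higher and 278 lower to 277 and 197. Over the alternatives, calls among all genes ranged from 7681 to 11437 between the lines (10389), from 1 to 3296 for XRN2 siRNA in LN229 (450), from 1 to 497 in U251 (1), from 1 to 2369 for the mean (173), from 0 to 1115 for the difference (0), and from 0 to 1913 in LN229 and 0 to 476 in U251 for control siRNA against mock (0 each). Exon-exon reads were added as an alternative after the data were seen. Depth limits MGMT most, at 4 to 8 reads per U251 library.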
